A study of Americamysis bahia with 35 samples.

Results

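The set described here holds 32 of the 22900 genes of a Trinity transcriptome of the mysid Americamysis bahia. They are the genes that were lower in every library of the highest concentration of both tire-wear particle leachates than in any control library. The members were chosen by the measured CPM of 3 of the 7 groups. Estimated counts were summed per Trinity gene and divided by the library total, as CPM (counts scaled to a common library total). A gene was kept if its mean was at least 5 CPM over the 35 libraries and if all 5 libraries of unweathered leachate at 1.08 g/L and all 5 of weathered leachate at 2.68 g/L lay below the lowest of the 5 controls. Of the 9252 genes with a mean of at least 5 CPM, 0.346% met the rule, 2.13% met the unweathered part of it and 0.951% the weathered part.

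Whole juvenile mysids were exposed for 96 h to leachate made in filtered seawater of 25 ppt, and the groups read here were unweathered leachate at 0.27, 0.54 and 1.08 g/L, weathered leachate at 0.67, 1.34 and 2.68 g/L, and a control at 0 g/L. All groups shared an age label of 5 days, the same light cycle and temperature, and a diet of Artemia nauplii. The labels name no strain or sex. They are silent on whether each of the 5 libraries is 1 animal, a pool or a separate tank, so p-values here speak of the spread between libraries, and some of that spread may be technical. RNA came from the whole body, so fewer cells of a type and less RNA per cell cannot be told apart, and the files do not say from which species a transcript came.

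Mysids are small crustaceans of coastal waters that carry their young in a brood pouch and are kept as a standard species in marine toxicity tests. Tire-wear particles are rubber fragments worn off on the road, and water in contact with them takes up metals such as zinc and organic additives such as antioxidants of the rubber. Weathering changes what can still dissolve out of the particles. Trinity assembles transcripts from short reads without a genome and groups contigs that share sequence into a Trinity gene, whose ID gives the read cluster, the component and the gene. The files pair no ID with a gene name or a protein, so the members are described by ID, level, length, isoforms and behaviour, and no role is given to any of them.

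Library totals lay between 18081325 and 28390588 estimated counts, and the members had between 34 and 109934 counts in a library. The TMM factor of edgeR, which corrects a library total for a few abundant transcripts, ran from 0.768 to 1.16. Control replicate 4 stood apart among the controls, with the lowest total of all libraries and a factor of 0.916, against 1.09 to 1.13 in the other controls. It was the lowest control for 15 of the 32 members. Weathered 0.67 g/L replicate 1 had the lowest factor of all, and weathered 1.34 g/L replicate 3 correlated least with the other libraries. Neither was compared with the controls by the rule, and values with and without both are given where a result rests on them.

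The 32 genes held 5 with a large fall and many with a small one. On the log2 scale of edgeR's fit, with TMM-scaled totals, their median was −0.34 at unweathered 1.08 g/L and −0.37 at weathered 2.68 g/L. Medians over the 9252 genes were 0.03 and 0.02. Because the rule chose the members by these libraries, these changes are descriptions and carry no test. The fall was at least 2-fold in both leachates in 5 genes, under 0.5 log2 units in both in 18, and in between in 9. A fall of under 0.25 log2 units in both was found in 6 of the 18. In this fit 12 members were called lower at unweathered 1.08 g/L, where 0.628% of the 17990 genes tested were called lower, and 7 at weathered 2.68 g/L, where 0.133% were. None was called higher, against 2.33% and 0.756% of all genes. The rule set this direction in advance, so these counts describe the choice of members and are no evidence about them.

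**Figure D1:**
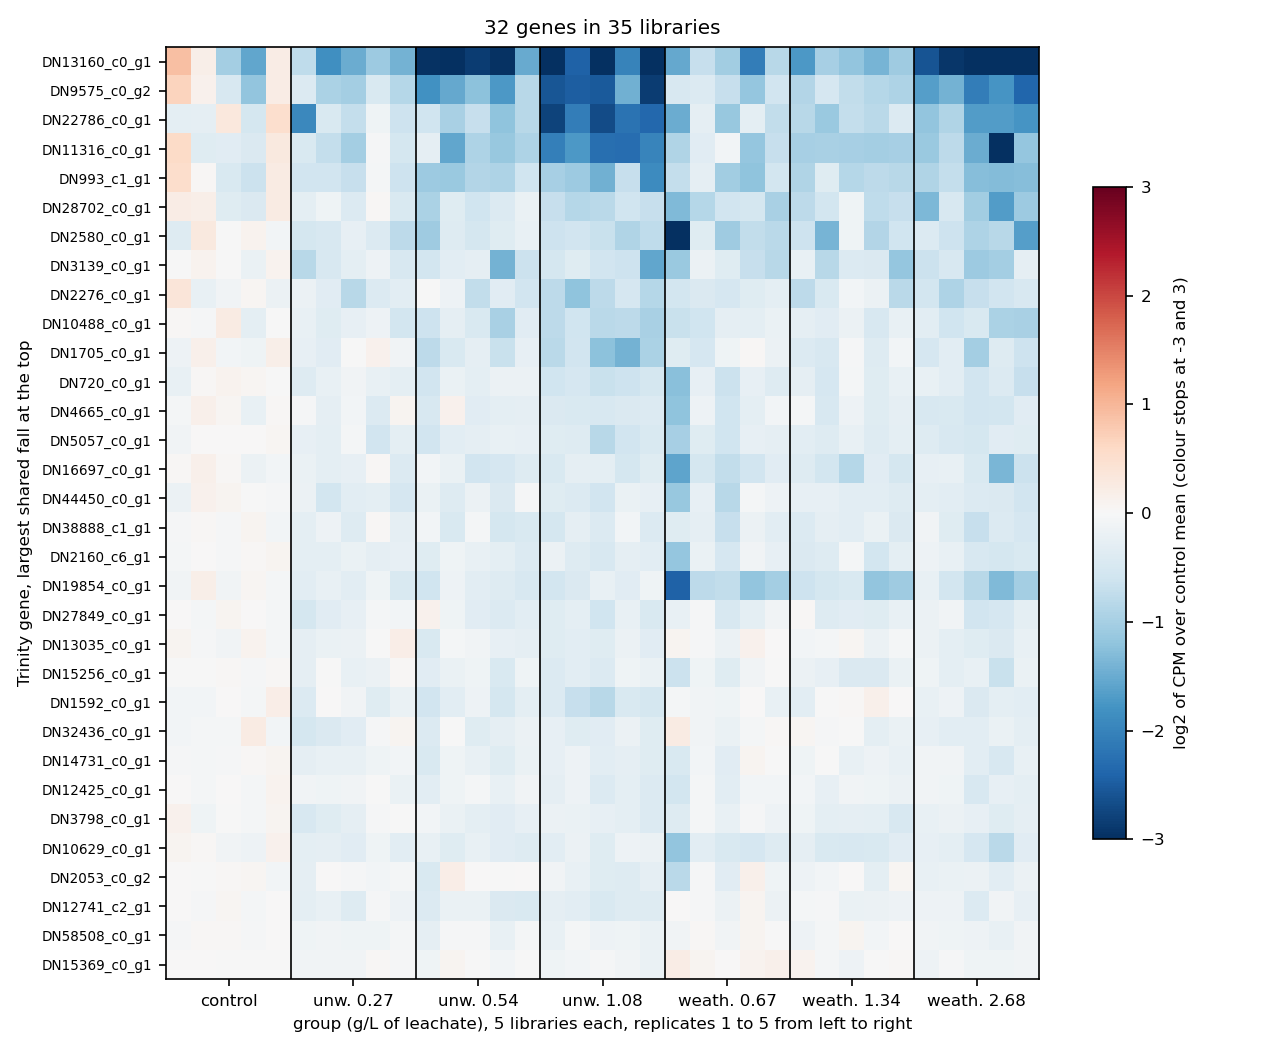
Level of each of the 32 genes (rows, IDs without the TRINITY_ prefix, ordered by the smaller of the 2 falls at the highest concentrations) in each of the 35 libraries (columns), as log2 of CPM over the mean of the 5 controls; blue is lower and red is higher, and colours stop at −3 and 3. The 5 rows at the top hold the deepest blue at unweathered 1.08 and weathered 2.68 g/L, and the 18 genes with a fall under 0.5 log2 units in both are mostly pale, with weathered 0.67 g/L replicate 1 as the darkest column of several.

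TRINITY_DN13160_c0_g1 was lower by the widest margin in both leachates. It had 15.2, 39.8, 24.7, 52.7 and 15.2 CPM in the unweathered 1.08 g/L libraries and 35.2, 28.2, 22.8, 23.8 and 21.0 CPM in the weathered 2.68 g/L libraries, against 399, 239, 104, 71.8 and 249 CPM in the controls. The control libraries differed among themselves by more than 5-fold, and no library of these 2 exposed groups reached the lowest of them. The log2 change was −2.75 ± 0.40 (SE) in unweathered leachate and −2.94 ± 0.40 in weathered leachate, levels of 13.9% and 12.3% of the control mean in CPM. At the lower concentrations it averaged 88.3 ± 25.3 CPM at unweathered 0.27 g/L and 36.4 ± 21.1 CPM at 0.54 g/L, and 96.0 ± 33.6 CPM at weathered 0.67 g/L and 89.2 ± 17.2 CPM at 1.34 g/L (SD, n = 5 each). In unweathered leachate 4 of the 5 libraries at 0.54 g/L were already near the level of 1.08 g/L, and both lower weathered groups were near the level of unweathered 0.27 g/L.

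TRINITY_DN9575_c0_g2 was the most abundant member, at 4866 TPM in the controls (a share of the library per transcript length), and ranked 21 among the 9252 genes. It had 442, 467, 450.3, 957 and 362 CPM at unweathered 1.08 g/L and 826, 973, 616, 766 and 501 CPM at weathered 2.68 g/L, against 4127, 2838, 1858, 1149.9 and 3037 CPM in the controls. Its log2 change was −2.19 ± 0.27 in unweathered and −1.75 ± 0.26 in weathered leachate (SE). Unweathered 1.08 g/L replicate 4 stood above the other 4 of its group. Means were higher at the lower concentrations, with 1586 ± 317 CPM at unweathered 0.27 g/L and 1000.4 ± 298 CPM at 0.54 g/L, and with 1669 ± 316 CPM at weathered 0.67 g/L and 1521 ± 195 CPM at 1.34 g/L (SD, n = 5 each). Of the 20 libraries at the lower concentrations, 4 lay below the lowest control, the fewest of any member. Control replicate 4 set that limit for this gene.

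TRINITY_DN993_c1_g1, outside the rule for naming and chosen here after its values were seen because it completes the 5, had the smallest of the 5 falls, with a log2 change of −1.10 ± 0.20 in unweathered and −1.02 ± 0.20 in weathered leachate (SE). It had 49.9, 46.9, 36.9, 62.0 and 27.02 CPM at unweathered 1.08 g/L and 53.4, 61.0, 41.4, 40.7 and 41.2 CPM at weathered 2.68 g/L, against 144, 102, 73.1, 63.8 and 119 CPM in the controls. Unweathered 1.08 g/L replicate 4 and control replicate 4 came within 2 CPM of each other. The 5 controls stood in the same order for TRINITY_DN13160_c0_g1, TRINITY_DN9575_c0_g2 and TRINITY_DN993_c1_g1, from replicate 1 as the highest through 5, 2 and 3 to replicate 4.

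TRINITY_DN22786_c0_g1 was the least abundant of the 5, and its controls followed another order. It had 1.88, 3.06, 2.02, 2.77 and 2.52 CPM at unweathered 1.08 g/L and 5.71, 6.96, 4.07, 4.04 and 3.78 CPM at weathered 2.68 g/L, against 10.6, 10.8, 16.0, 8.90 and 18.4 CPM in the controls. Every unweathered 1.08 g/L library lay below every weathered 2.68 g/L library, and those lay below every control. The log2 change was −2.34 ± 0.24 in unweathered and −1.35 ± 0.23 in weathered leachate (SE). The lower concentrations lay close together, at 8.18 ± 3.05 CPM at unweathered 0.27 g/L, 7.18 ± 1.15 CPM at unweathered 0.54 g/L, 7.89 ± 2.74 CPM at weathered 0.67 g/L and 7.65 ± 1.36 CPM at weathered 1.34 g/L (SD, n = 5 each).

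TRINITY_DN11316_c0_g1 had 75.4, 95.02, 65.4, 64.7 and 79.3 CPM at unweathered 1.08 g/L and 144, 180.5, 112, 39.3 and 139.5 CPM at weathered 2.68 g/L, against 464, 242, 246, 231 and 382 CPM in the controls. One weathered 2.68 g/L library was lower than all unweathered 1.08 g/L libraries, while the other 4 were higher than all of them. The log2 change was −1.99 ± 0.26 in unweathered and −1.29 ± 0.25 in weathered leachate (SE). All 3 of its isoforms were lower on average in both groups than in the controls. Its mean stepped down with concentration in both series, with 219 ± 55.6 CPM at unweathered 0.27 g/L and 167 ± 56.1 CPM at 0.54 g/L, and with 208 ± 61.8 CPM at weathered 0.67 g/L and 157 ± 1.78 CPM at 1.34 g/L (SD, n = 5 each). The 5 libraries of weathered 1.34 g/L differed by less than 5 CPM.

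**Figure D2:**
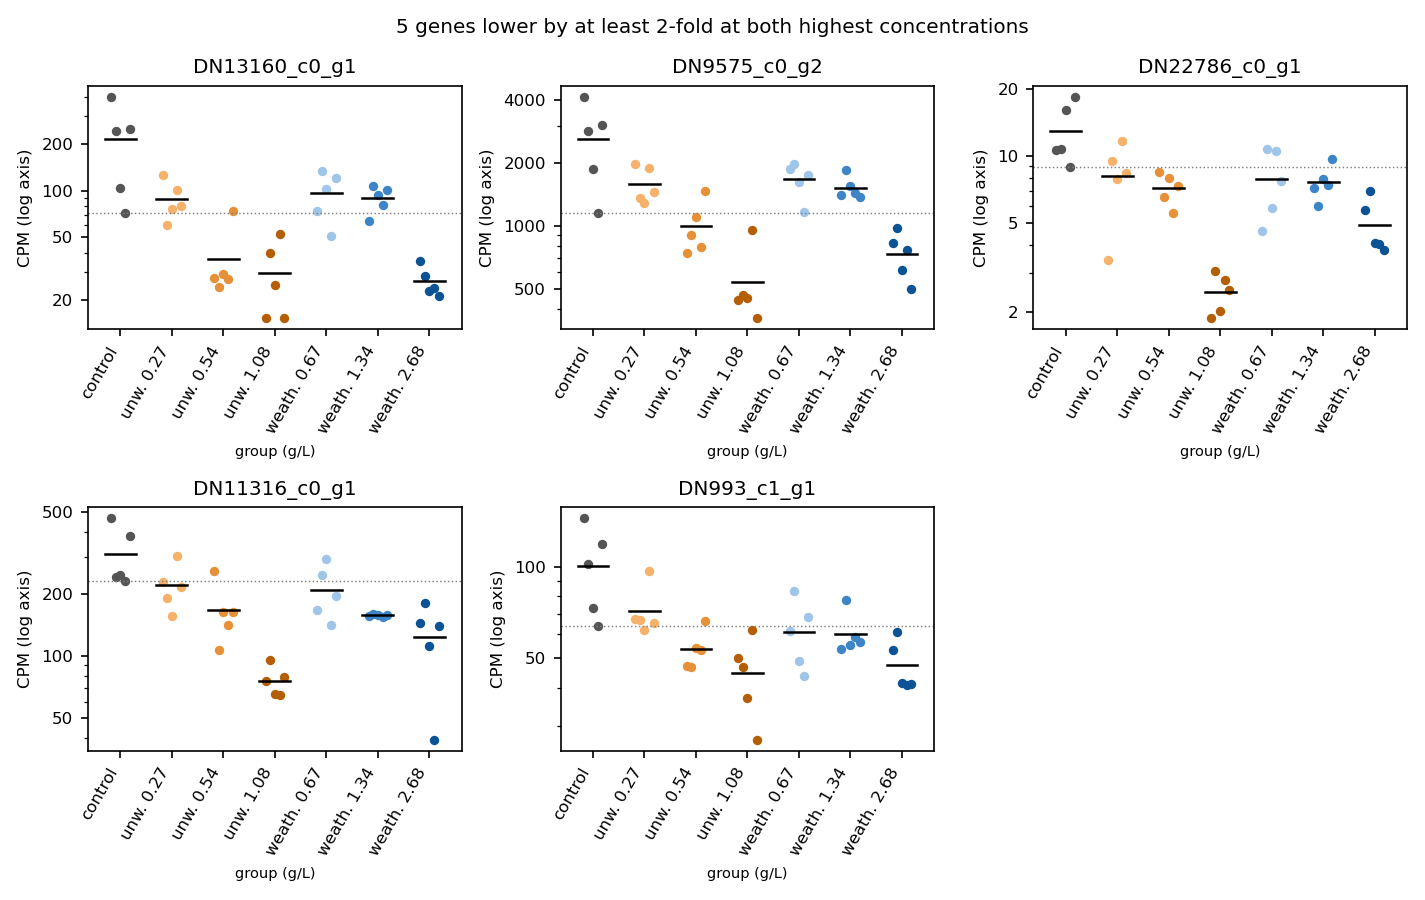
CPM on a log axis of the 5 genes lower by at least 2-fold in both leachates, 1 panel per gene (IDs without the TRINITY_ prefix); each point is a library, each bar the mean of 5 libraries, and the dotted line the lowest control library. All points at unweathered 1.08 and weathered 2.68 g/L lie under the dotted line, as the rule required; among the lower concentrations the points of weathered 1.34 g/L in DN11316_c0_g1 and of unweathered 0.54 g/L in DN22786_c0_g1 also all lie under it.

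The 9 genes in between kept from 51.3% to 80.0% of the control mean in CPM at unweathered 1.08 g/L and from 47.6% to 82.4% at weathered 2.68 g/L. One of them, TRINITY_DN28702_c0_g1, named after its values were seen, was lower by at least 2-fold in weathered leachate and by less in unweathered leachate, with a log2 change of −0.67 ± 0.17 in unweathered and −1.01 ± 0.17 in weathered leachate (SE). The 18 genes with small falls kept 69.8% to 92.5% and 68.8% to 92.6%. TRINITY_DN58508_c0_g1, second in CPM in the controls among the members, is an example of these. It had 1168, 1310.04, 1226, 1244 and 1179.7 CPM at unweathered 1.08 g/L and 1275, 1253, 1226, 1165 and 1271 CPM at weathered 2.68 g/L, against 1327, 1401, 1407, 1323 and 1365 CPM in the controls. The groups were separate on this scale by 0.0139 log2 units between the lowest control and the highest exposed library. With TMM-scaled totals they overlapped, at 1076 to 1286 CPM at unweathered 1.08 g/L and 1094 to 1341 CPM at weathered 2.68 g/L, against 1169.5 to 1444 CPM in the controls.

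The rule has 2 thresholds, and members lay close to both. The smallest gap to the controls belonged to TRINITY_DN2053_c0_g2, with a highest unweathered library of 33.03 CPM and a highest weathered one of 31.2 CPM, against a lowest control of 33.12 CPM. Just outside, TRINITY_DN1205_c0_g1 had a highest weathered library of 184.4 CPM, against a lowest control of 184.03 CPM. The member with the lowest mean was TRINITY_DN19854_c0_g1 at 5.88 CPM, and TRINITY_DN93408_c0_g1 missed the minimum at 4.99 CPM. A further 64 genes missed the rule because 1 library of the 2 highest concentrations lay at or above the lowest control. Genes kept out by a single low control, with more such libraries, are not in this count.

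The 2 leachates were not sampled at the same concentrations, so their falls are given side by side without a test. The fall was larger at unweathered 1.08 g/L in 22 members and at weathered 2.68 g/L in 10. Many of these differences were smaller than either SE, such as 0.01 log2 units in TRINITY_DN3139_c0_g1 with an SE of 0.19 in both. The median log2 change of the members was −0.34 in unweathered and −0.37 in weathered leachate. The share of all genes with a larger unweathered fall was not counted. In TRINITY_DN22786_c0_g1 alone every unweathered library lay below every weathered one, a pattern that 0.454% of the 9252 genes showed, and no member showed the opposite, which 1.57% did. Among the 5 strongest, TRINITY_DN13160_c0_g1 and TRINITY_DN993_c1_g1 had changes in the 2 leachates that differed by less than 1 SE of either.

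**Figure D3:**
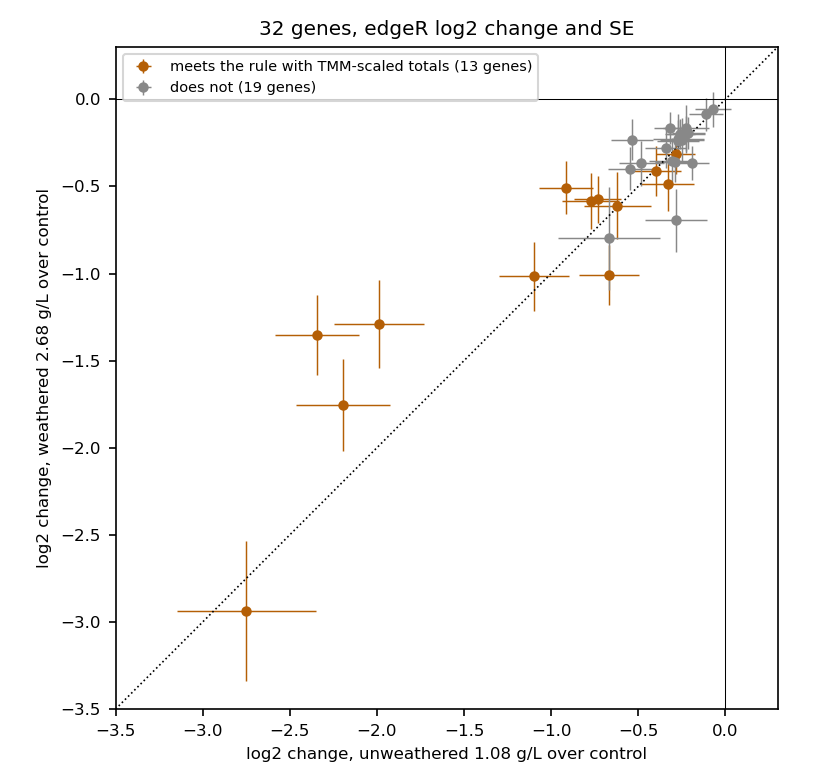
Log2 change of each of the 32 genes at unweathered 1.08 g/L (horizontal) and weathered 2.68 g/L (vertical) over control, from edgeR's fit, with SE bars; the dotted line marks equal change. The 13 genes in brown also meet the rule when library totals are scaled by TMM, and they include the 5 strongest, while most of the 19 grey genes crowd between 0 and −0.5.

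At the 4 lower concentrations the controls are the same libraries that the rule required to be high, so these comparisons also carry no test for the members. In CPM, 30 of the 32 members had a mean below the control mean at all 4. With TMM scaling 19 did, and TRINITY_DN58508_c0_g1 was among those that did not, with log2 changes of 0.02 and 0.02 at unweathered 0.27 and 0.54 g/L and 0.19 and 0.10 at weathered 0.67 and 1.34 g/L. With library totals alone as the scale, 74.3% to 78.4% of the 9252 genes were lower in each of these 4 comparisons taken alone. Their median log2 change was −0.12 to −0.16. Under TMM 42.1% to 47.0% were lower, and the median was 0.01 to 0.05. The share of all genes lower at all 4 at once was not counted. The 5 strongest were lower than control at all 4 concentrations with TMM, upper quartile, total count and DESeq2 scaling. Their median log2 change with TMM was −0.54 at unweathered 0.27 g/L and −0.77 at 0.54 g/L, and −0.49 at weathered 0.67 g/L and −0.60 at 1.34 g/L.

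All 5 libraries lay below the lowest control in 4 members at unweathered 0.27 g/L, where 0.897% of the 9252 genes did so, and in 11 members at unweathered 0.54 g/L, where 2.28% did. The counts were 9 members at weathered 0.67 g/L, where 3.16% of the genes did so, and 10 at weathered 1.34 g/L, where 6.03% did. TRINITY_DN19854_c0_g1 was below the lowest control in all 20 libraries of these groups, and a member was below it in a median of 15. The controls of these comparisons chose the members, so a member's calls here, and the settings that keep them, are descriptions and no test. In edgeR's fit TRINITY_DN13160_c0_g1 and TRINITY_DN9575_c0_g2 were the only genes called lower at unweathered 0.54 g/L, a share of 0.0111% of the 17990 tested. The call of TRINITY_DN13160_c0_g1 was kept in 5 of 6 other settings, with a loss when only the compared groups were fitted, and in all 10 fits without a single library. That of TRINITY_DN9575_c0_g2 was kept in 2 of 6 settings and in 2 of 10 fits without a single library, those without control replicate 4 or unweathered 0.54 g/L replicate 5. TRINITY_DN19854_c0_g1 was the only member called lower at weathered 0.67 g/L, where 0.217% of genes were. Its call was kept in 5 of 7 other settings, with a loss among others when only the compared groups were fitted, and it was lost without control replicate 1, 2, 3 or 5. None of its isoforms was called there when transcripts were tested, and its isoform in the authors' deposited table for weathered 0.67 g/L has an FDR of 0.667. No member was called at unweathered 0.27 g/L, where 0% of genes were called lower, or at weathered 1.34 g/L, where 0.00556% were. None was called higher at these 4 concentrations, where the shares of all genes were 0.00556% and 0.145% at unweathered 0.27 and 0.54 g/L, and 0.128% and 0.0278% at weathered 0.67 and 1.34 g/L. The mean in CPM stepped down over control and the 3 unweathered concentrations in 25 members, a pattern of 7.06% of the 9252 genes, and over control and the 3 weathered concentrations in 10, a pattern of 2.82%. The ends of these series were set by the rule, so only the order of the lowest and middle concentration is new information.

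That order was tested in libraries that the rule did not compare. The middle concentration was set against the lowest within each leachate, 0.54 over 0.27 g/L unweathered and 1.34 over 0.67 g/L weathered. No member was called by edgeR's quasi-likelihood test with Benjamini-Hochberg adjustment over 17990 genes, and the tests called almost nothing among all genes. In unweathered leachate 0% of genes were called higher and 0% lower, with 513 genes at an unadjusted p under 0.05 and 0 genes called by DESeq2. In weathered leachate 0% were called in either direction, with 548 genes at an unadjusted p under 0.05 and 1 gene called by DESeq2. In the mean of both comparisons 0.00556% of genes were called higher and 0% lower, 564 were at an unadjusted p under 0.05, and DESeq2 called 1. Leaving out 1 library in turn, or both libraries that stand apart, gave no call for a member in these 3 comparisons.

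The direction of the members was mixed. Of the 32, 24 were lower at unweathered 0.54 than at 0.27 g/L (75%, with 48.9% of the 9252 genes), at a median log2 change of −0.09, and 19 to 27 were lower when 1 library was left out. In weathered leachate 20 were lower at 1.34 than at 0.67 g/L (62.5%, with 53.4% of the genes), at a median of −0.06, and 19 were without the 2 libraries that stand apart. With totals alone as the scale, 14 of the 32 were lower in weathered leachate and the median was 0.02. On that scale 35.6% of the 9252 genes were lower there, at a median of 0.05. The direction in weathered leachate thus depends on the scale, for the members and for all genes. The 5 strongest were lower in both comparisons under TMM, upper quartile, total count and DESeq2 scaling, and 10 of the other 27 were lower in both under TMM. Without the 2 libraries that stand apart, 4 of the 5 were lower in weathered leachate. The share of the 9252 genes lower in both comparisons was not counted.

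The smallest p among the members belonged to TRINITY_DN13160_c0_g1 in unweathered leachate. Its level was 27.4, 24.0, 29.4, 27.1 and 74.1 CPM at 0.54 g/L, against 126, 59.7, 76.0, 100.2 and 80.0 CPM at 0.27 g/L. The groups overlapped in 1 library, replicate 5 of 0.54 g/L. Its log2 change was −1.22 ± 0.38 (SE) with an adjusted p of 1.00 in edgeR's quasi-likelihood test. Leaving out 1 library gave −1.73 to −1.04. In weathered leachate its change was −0.15 ± 0.37, and the difference between the leachates, weathered minus unweathered, was 1.07 ± 0.53 with an adjusted p of 1.00 (edgeR). No member was called for that difference, nor was any gene higher (0%) or lower (0%), with 517 genes at an unadjusted p under 0.05 and 0 called by DESeq2.

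In the mean of both leachates, TRINITY_DN13160_c0_g1 had a log2 value of −0.68 ± 0.26, TRINITY_DN11316_c0_g1 one of −0.42 ± 0.18 and TRINITY_DN9575_c0_g2 one of −0.42 ± 0.18, all with an adjusted p of 1.00 (SE, edgeR). TRINITY_DN11316_c0_g1 was the one of these with values of similar size in both leachates, −0.38 ± 0.25 unweathered and −0.45 ± 0.25 weathered. TRINITY_DN22786_c0_g1 had −0.17 ± 0.23 unweathered and −0.08 ± 0.23 weathered, both within 1 SE of 0. For TRINITY_DN993_c1_g1 the weathered value was −0.09 ± 0.20 and turned to 0.04 without the 2 libraries that stand apart. An unadjusted p under 0.05 was reached by 3 members in unweathered and by 1 in weathered leachate, and by 2.85% and 3.05% of all genes tested.

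**Figure D4:**
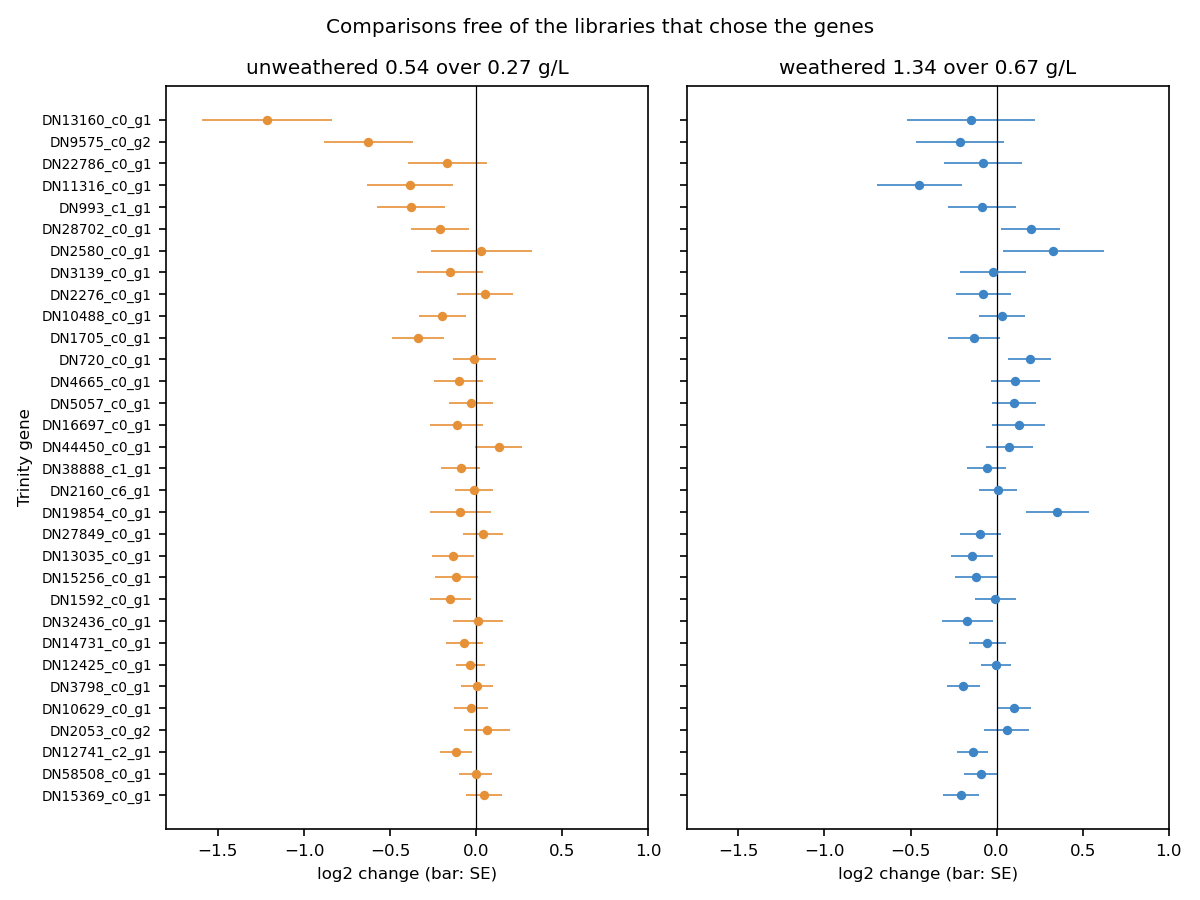
Log2 change of each of the 32 genes between the middle and the lowest concentration of each leachate, from edgeR's fit, with SE bars; left, unweathered 0.54 over 0.27 g/L, right, weathered 1.34 over 0.67 g/L. The 5 genes at the top are left of 0 in both panels, and no gene passed the adjusted threshold in either.

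The members also varied among the replicates of a group. Over the 20 libraries of the lower concentrations, after each group's mean was taken out, the median correlation of log2 TMM-scaled CPM over the 496 pairs of members was 0.25, and 0.03 over all pairs of the 9252 genes. These points share library, depth and scaling, so the values are descriptions. Without the 2 libraries that stand apart the median over the pairs of members was 0.34, and the median over all pairs of genes was not computed. TRINITY_DN13160_c0_g1 and TRINITY_DN9575_c0_g2 correlated at 0.81, TRINITY_DN9575_c0_g2 and TRINITY_DN993_c1_g1 at 0.80, and TRINITY_DN13160_c0_g1 and TRINITY_DN993_c1_g1 at 0.69, and without the 2 libraries that stand apart at 0.88, 0.78 and 0.75. These 3 are the genes whose controls stood in the same order. TRINITY_DN11316_c0_g1 departed from that order only in control replicates 2 and 3, at 242 and 246 CPM. It correlated with the 3 genes at 0.24 to 0.43, and TRINITY_DN22786_c0_g1 correlated with them at −0.31 to 0.02. Among the 5 strongest genes, 3 thus varied together between replicates, TRINITY_DN11316_c0_g1 varied with them more weakly, and TRINITY_DN22786_c0_g1 did not. This grouping was seen in the data and has no test.

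The members spanned a wide range of levels and lengths. Their median level in the controls was 52.1 TPM, and 16.5 TPM over the 9252 genes, with a range of 4.01 to 4866 TPM. The median length of the longest isoform was 1967 bases, and 2207 bases over the 9252 genes, from 590 bases in TRINITY_DN28702_c0_g1 to 7271. In the controls the median coefficient of variation of CPM was 8.48% for the members and 14.8% for the 9252 genes. Separation from the controls was part of the rule, so a low spread there is no finding. In the libraries of weathered 0.67 g/L, which the rule did not compare, the medians were 19.2% and 19.4%, and in those of unweathered 0.27 g/L 12.7% and 15.4%. They were 13.4% and 14.6% at unweathered 0.54 g/L, and 10.5% and 13.4% at weathered 1.34 g/L.

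Of the 53 isoforms of the members, 51 averaged at least 1 CPM, and 48 of these were lower on average in both highest concentrations than in the controls. A single isoform made up 20 members, and for these the rule itself required the isoform to be lower. In 10 of the 12 members with at least 2 isoforms at 1 CPM, all of them were lower in both. The exceptions were TRINITY_DN19854_c0_g1 and TRINITY_DN720_c0_g1. In TRINITY_DN19854_c0_g1 the main isoform averaged 4.23 ± 1.04 CPM at unweathered 1.08 g/L and 3.58 ± 1.45 CPM at weathered 2.68 g/L, against 3.47 ± 2.18 CPM in the controls (SD, n = 5 each). The lower total of that gene lay in its 2 minor isoforms, and the main one held 64.9% and 73.0% of the gene's estimated counts in the exposed groups, against 42.6% in the controls. These groups overlap in spread, and estimated counts of similar isoforms are divided by a model.

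Another 10 Trinity genes shared a read cluster with 7 of the members, 2 of them the same component as well, and none of the 10 met the rule. TRINITY_DN11316_c0_g2, from the component of TRINITY_DN11316_c0_g1, averaged 5.06 CPM at unweathered 1.08 g/L and 8.42 CPM at weathered 2.68 g/L, against 10.9 CPM in the controls. TRINITY_DN2053_c0_g1, from the component of TRINITY_DN2053_c0_g2, averaged 30.4 and 27.1 CPM in those exposed groups, against 21.0 CPM in the controls, so its means lay above the control mean where those of TRINITY_DN2053_c0_g2 lay below. In the read cluster of TRINITY_DN13160_c0_g1, TRINITY_DN13160_c3_g1 averaged 8.40 CPM at unweathered 1.08 g/L and 5.79 CPM at weathered 2.68 g/L, against 3.96 CPM in the controls, with log2 changes of 1.13 and 0.61. These were the largest changes among the genes that shared only the read cluster. Over the 7 such genes with a mean of at least 5 CPM the medians were −0.04 and 0.18, and 2 were lower in both. Whether reads were divided between genes of a cluster was not tested.

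The authors' deposited tables hold 45 isoforms of the members, with at least 1 for each of the 32. At an FDR under 0.05 the authors' deposited table for unweathered 1.08 g/L has 15 of these isoforms, of 13 members, as lower, of 152 lower calls among 13326 transcripts. The authors' deposited table for weathered 2.68 g/L has 7, of 7 members, of 22 lower calls, and the authors' deposited table for weathered 0.67 g/L has 1, of 37 lower calls. In the authors' deposited table for unweathered 0.54 g/L both lower calls of the table are isoforms of members, those of TRINITY_DN13160_c0_g1 at −2.36 and TRINITY_DN9575_c0_g2 at −1.22 log2. None of the 45 is called higher in any of the authors' deposited tables. The share of all 13326 transcripts called higher was not counted, so this is no result about the members. At unweathered 1.08 and weathered 2.68 g/L the rule set the direction of the genes in advance. These tables rest on the same libraries and are no independent evidence.

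Membership depended on how library totals were scaled. With TMM-scaled totals 32 genes also met the rule, but only 13 of them were among the members, and with upper quartile scaling 54 genes met it, with 21 of the members. With TPM in place of CPM 35 genes met it, with 26 of the members. The 5 strongest met the rule under all 3 scales, as did 11 members in all, while 3 of the 18 members with small falls met it with TMM. Leaving out control replicate 4 raised the number of genes that met the rule to 172, and leaving out weathered 2.68 g/L replicate 1 raised it to 64. Each other library of the 3 groups, left out in turn, gave 32 to 46 genes. Weathered 2.68 g/L replicates 2 and 1 were the highest exposed library for 10 and 8 members.

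**Figure D5:**
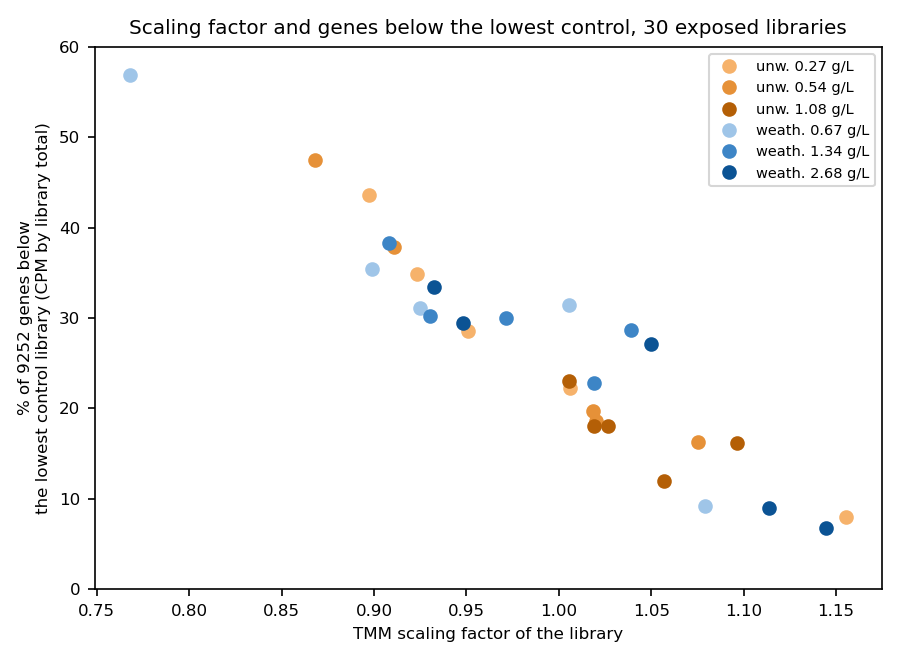
Percentage of the 9252 genes below the lowest control library, in CPM by library total, against the TMM factor of the library, for the 30 exposed libraries; colours mark the groups. Libraries with a low factor had more genes below the lowest control, from 56.9% at a factor of 0.768 to 6.77% at 1.14.

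The scaling factor moved with these counts across libraries. At a factor of 0.768, weathered 0.67 g/L replicate 1 had 56.9% of the 9252 genes below the lowest control, and 25 of the 32 members. At a factor of 1.14, weathered 2.68 g/L replicate 2 had 6.77% of the genes below it, and all 32 members, as the rule required. Weathered 0.67 g/L replicate 2, at a factor of 1.08, had 9.17% of the genes and 16 members below it. The part of scaling in the falls of the 18 genes with small changes was not tested. For the 5 genes with falls of at least 2-fold, the highest exposed library stayed below the lowest control after TMM scaling.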

How the data were processed

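Whole-body poly(A) RNA of juvenile mysids was sequenced in 35 libraries, 5 in each of 7 groups, prepared with a strand-keeping kit per the labels' protocols. The authors deposited, for each of 34903 Trinity transcripts and each library, an estimated count and a TPM value, and for each exposed group a table of log2 fold changes and FDR p-values (q-values) against the control for 13326 transcripts. The tools named are Trimmomatic 0.38, kallisto and DESeq2, per the submitters' processing notes. The version of kallisto, the assembly and the strand setting were not given in the sources used here. Because reads are shared out among similar transcripts by a model, an isoform's estimated count can move with that of another isoform of its gene.

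Estimated counts were summed here per Trinity gene, divided by library totals for CPM and rounded for the tests. edgeR 4.0.16 in R 4.3.3 kept 17990 genes with filterByExpr (minimum count 10, total 15), all 32 members among them, scaled totals by TMM, and fitted 7 group means to all 35 libraries. Changes were tested by the quasi-likelihood test, with Benjamini-Hochberg adjustment over all genes tested and a threshold of 0.05. The SE of a log2 change is its size divided by the square root of F. Alternatives were upper quartile and total count scaling, DESeq2 1.42.0, no filter, only the compared groups, replicate number as a block, transcripts, and each library left out in turn. Leaving out weathered 0.67 g/L replicate 1 with weathered 1.34 g/L replicate 3 was added after seeing the data. The test code was checked on simulated counts.

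The members, the lists and the rules were chosen with earlier results of these data known. Gene lists could not be run, since no names are paired with the IDs. Named members were the 3 with the highest control CPM, the 3 with the largest shared fall and the 3 with the smallest p in the mean of both middle-over-lowest comparisons, 5 genes in all.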

Additional observations from a re-analysis of the deposited data

Results flagged for a closer look

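Among 42 groups of 5 libraries, 7 for each of the 6 members described library by library, 4 had a highest library farther from the rest than Dixon's limit of 0.71 for the gap over the range. Chance flags about 1 in 20 groups. TRINITY_DN13160_c0_g1 had 74.06 CPM in unweathered 0.54 g/L replicate 5, where the next library had 29.35 CPM, a ratio of 0.893. TRINITY_DN9575_c0_g2 had 957.1 CPM in unweathered 1.08 g/L replicate 4, next to 466.9 CPM, a ratio of 0.824. TRINITY_DN993_c1_g1 had 96.48 CPM in unweathered 0.27 g/L replicate 4, next to 67.26 CPM (0.843), and 77.44 CPM in weathered 1.34 g/L replicate 2, next to 58.63 CPM (0.787). All 4 belong to the 3 genes that varied together between replicates.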

How the results depend on the processing

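No call was made for a member in the 3 middle-over-lowest comparisons under any setting tried, with 0 to 0 when 1 library was left out. Among all genes, calls for unweathered 0.54 over 0.27 g/L and for weathered 1.34 over 0.67 g/L stayed at 0 to 0 without single libraries, and DESeq2 gave 1 for the weathered comparison. The mean of both had 1 call, and 0 with upper quartile or total count scaling, no filter, only the compared groups, the replicate block, transcripts or without the 2 atypical libraries, and 0 to 1 without single libraries. The difference of the leachates had 0, and 0 to 1. Members lower were 19 to 27 (unweathered), 16 to 22 (weathered) and 20 to 25 (mean) without single libraries. Reversed signs of named members were TRINITY_DN22786_c0_g1 in weathered leachate without weathered 0.67 g/L replicate 4 (0.05394, range −0.2194 to 0.05394), TRINITY_DN993_c1_g1 without both atypical libraries (0.04064) and TRINITY_DN58508_c0_g1 in unweathered leachate without unweathered 0.27 g/L replicates 1 (0.001222), 2 (0.02257) and 5 (0.05165) and 0.54 g/L replicates 1 (0.06237) and 4 (0.003047), in a range of −0.05896 to 0.06237.

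Counts against control moved with the setting, and the cause was not tested. At unweathered 1.08 g/L 532 genes were called (419 higher, 113 lower), with upper quartile scaling 307 higher and 207 lower, and 328 to 583 without single libraries. At weathered 2.68 g/L there were 160, with total count scaling 96, DESeq2 244, only the compared groups 52, and 85 to 200 without single libraries. At unweathered 0.27 g/L there was 1, with total count scaling or only the compared groups 0, DESeq2 45, transcripts 2, and 0 to 2 without single libraries. At unweathered 0.54 g/L there were 28, with total count scaling 3, DESeq2 124, only the compared groups 7, the replicate block 12, transcripts 14, and 6 to 111 without single libraries. At weathered 0.67 g/L there were 62, with upper quartile scaling 101, total count 213, DESeq2 346, no filter 24, only the compared groups or transcripts 0, the replicate block 2, and 0 to 325 without single libraries. At weathered 1.34 g/L there were 6, with total count scaling 2, DESeq2 69, only the compared groups 33, transcripts 3, without both atypical libraries 177, and 3 to 9 without single libraries. The number of genes that met the rule was 32, with upper quartile scaling 54, and 32 to 172 without single libraries.

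The replicate numbers did not pair the libraries. Deviations from the group means of same-numbered libraries correlated at −0.651 to 0.654 over 105 pairs, mean 0.0151, and 2 of 35 libraries correlated best with one of their own number. The replicate block ended the calls of TRINITY_DN19854_c0_g1 at weathered 0.67 g/L and TRINITY_DN9575_c0_g2 at unweathered 0.54 g/L. With 5 libraries per group, a member's SE of 0.09 to 0.38 log2 units in the comparisons of the middle with the lowest concentration within a leachate limits what change could be called.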
